A study of Mus musculus with 2 samples.

Results

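The genes described here are 44 listed genes of the actin cytoskeleton and of the contractile apparatus, with the intermediate filament gene Vim, chosen as the non-control array spots whose gene name equals a listed name. Of the 44 names, 42 had a spot, with 88 probes and 106 spots on each array. Actg1 and Ezr had none under those names, although ezrin was on the array under its old name Vil2, which is also listed. Of the 42, 41 were measured well enough to be tested, among 15267 genes tested in all. The cells were GIF-5, a line of mouse gastric epithelial cells with the genotype Runx3-/-p53-/-, so both fractions lack Runx3 and p53 and neither is a wild-type control. GIF-5 cells grown in serum-containing medium were stained in suspension with a PE-labelled antibody to CD133, and a flow cytometer separated CD133-positive from CD133-negative cells. Total RNA of the CD133-positive cells was labelled with Cy3 and that of the CD133-negative cells with Cy5, and each pair was hybridised together on 1 of 2 arrays. The labels call the arrays biological replicates and do not say whether separate cultures were sorted, so p-values measure the spread between these 2 arrays only.

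Actin monomers assemble into filaments that give a cell its shape. Cross-linkers such as filamins and alpha-actinins join filaments into networks, non-muscle myosin II pulls on them once its light chains are phosphorylated, and tropomyosins, calponins and caldesmon ride along them and tune that pull. Talin, vinculin, paxillin and zyxin tie the filaments to integrins at focal adhesions, ezrin, radixin and moesin tie them to the membrane, and in gastrointestinal epithelium villin bundles them in the microvilli of the apical surface. Many of these genes are known targets of serum response factor (SRF) with its actin-sensing partners MRTF, and some of TEAD factors with their partner YAP.

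Ratios are given on the log2 scale after background correction and loess normalisation, as the mean of 2 arrays with its moderated standard error (SE). The CD133-positive fraction is the numerator, so a negative ratio means a lower level in CD133-positive cells. Prom1, which encodes the sorted marker CD133, had ratios of 3.83 and 3.73 on arrays 1 and 2. In the CD133-negative fraction its signal did not stand well above background, which makes this a difference of at least 3.58. The limma adjusted p of 0.0097 belongs to the measured ratios and not to this bound. Prom1 passed the filter through CD133-positive cells only and was the basis of the sort, so its ratio is a check of the sort and no independent result. CD133-positive RNA carried Cy3 on each array, so dye and fraction cannot be told apart. In such bulk RNA, fewer cells of a kind and less RNA per cell cannot be told apart either. Of listed markers of other cell types, none of the 6 tested blood cell markers was called, with ratios from -0.87 (Csf1r) to 0.34, and Ptprc and Itgam were not well above background. Of 10 fibroblast markers, 7 were not well above background anywhere, Pdgfra and Pdgfrb among them. The 2 tested were Col1a2 at 0.08 and Col1a1, which was at least 2-fold lower on both arrays, at -1.03 and -1.47 (mean -1.25, limma adjusted p = 0.067). The part of such cells in the ratios given here was not tested. Both tested endothelial markers, Vwf and Cdh5, were higher in CD133-positive cells by 3.75 and at least 2.54, while Pecam1, Kdr and 3 others of the 7 were not above background. Cdh5 passed the filter through CD133-positive cells only, which favours a ratio above 0, while Vwf was well above background in both fractions. Of the epithelial markers, 9 of 12 were tested, with ratios from -0.79 to 1.32, none called, Esrp1 was not above background, and Epcam was above it only in part. Of the 8 tested gastric markers 3 were called, all higher: Gkn2, Tff1 and Muc1. For all these marker counts, the shares over all tested genes were 1.38% called higher and 0.262% called lower.

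Across the 41 tested genes the ratios leaned towards CD133-negative cells. Flnc, Ahnak and Myh9 fell in CD133-positive cells (limma, Benjamini-Hochberg adjusted p under 0.05), which is 7.32% of the tested members, and 0.262% of all tested genes were called lower. No member was called higher by limma, where 1.38% of all genes were, and 3 (Tagln2, Vil1 and Myl9) were higher at an unadjusted p under 0.05, with 11.9% of all genes. By size alone, 7 members were at least 2-fold lower on both arrays, namely Flnc, Fscn1, Ahnak, Vim, Myh9, Msn and Cald1, which is 17.1% of the members against 2.12% of all genes. Myl9 was the 1 member at least 2-fold higher on both, with 2.50% of all genes. The ratio was below 0 on both arrays for 28 members, 68.3% against 39.7% of all genes, and above 0 on both for 7, 17.1% against 32.6%. At an unadjusted p under 0.05, 16 of the 41 members were lower, and 2438 of the 15267 genes were. The counts of 28 and 16 include Cnn1, which passed the filter through CD133-negative cells only, and this favours a ratio below 0. The median ratio of the members was -0.33 (-0.42 on array 1, -0.23 on array 2), and that of all tested genes was -0.03. The probes of the members were brighter than most, with a median log2 intensity of 12.3 against 9.33, and the part of brightness in these shares was not tested. Ratios had the same direction on both arrays for 35 of 41 members. The count of members called lower moved with the processing, from 3 to 1 (Ahnak) with the processed signals that the authors deposited and to 0 with the mean of a gene's tested probes. In the other direction, 12 members were called lower with the arrays scaled to each other, and 18 lower and 1 higher, Myl9, with median centring in place of loess. Of all genes called, 84.1% were higher as processed here, 43.7% with that scaling and 60.8% with median centring. Without moderation of the variance no gene passed in limma, and 2 members and 1507 genes had an unadjusted p under 0.05.

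**Figure D1:**
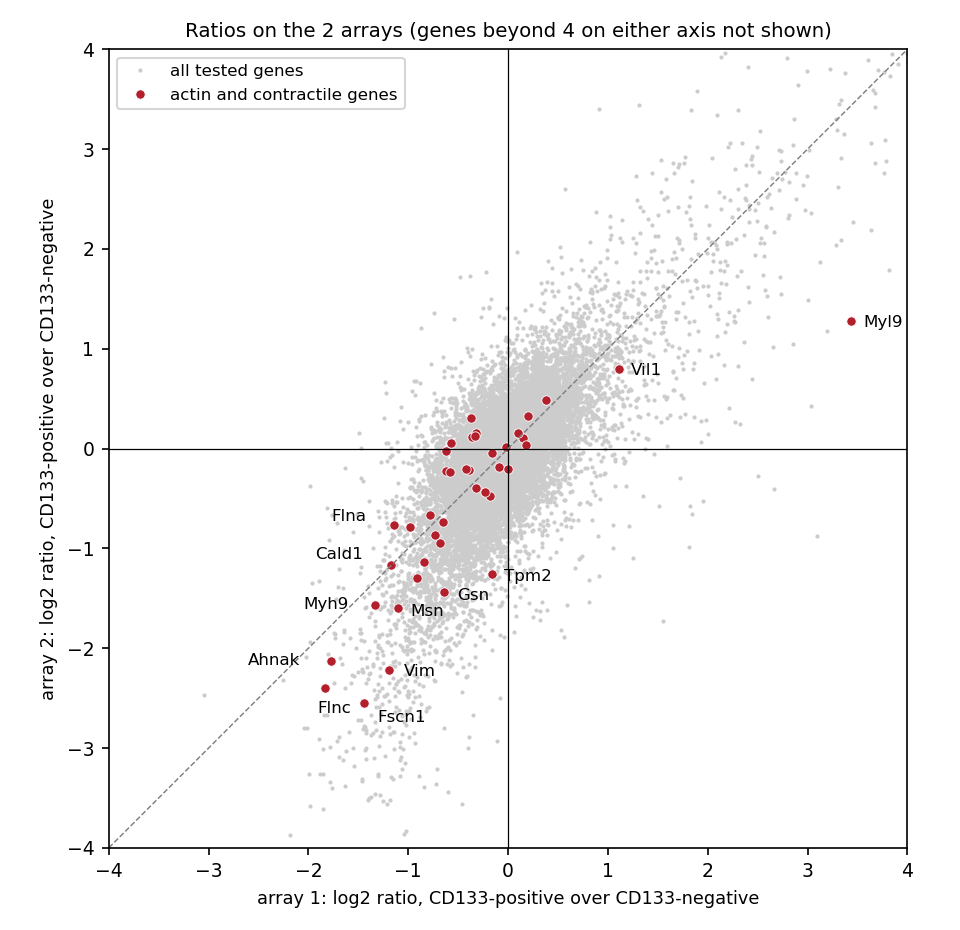
Log2 ratio on array 1 (x axis) against array 2 (y axis) for all tested genes (grey) and the 41 tested actin and contractile genes (red), with the line of equal values dashed; 48 genes lie beyond the axes. Most red points lie in the lower left, below 0 on both axes, Flnc, Fscn1 and Ahnak lowest, and Myl9 lies far to the right with 3.43 on array 1 and 1.28 on array 2.

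The tested actins had ratios near 0. Actb, the beta-actin of the cortex and stress fibres, had ratios of -0.09 and -0.19 on arrays 1 and 2 with the probe used. The array design describes that probe as similar to beta-actin and places it on chromosome X, and the second probe on chromosome 5. The second probe, printed in 10 spots per array, gave -0.05 with an SD of 0.03 over spots on array 1 and -0.19 with an SD of 0.05 on array 2. Both probes of Actb gave like values on each array, and the mean of -0.14 ± 0.14 was about the size of its SE. Acta2, the alpha-actin of smooth muscle and myofibroblasts, had 0.15 and 0.11, and a dim second probe of 10 spots had -0.44 and 0.93, in opposite directions. With median centring in place of loess the mean of Acta2 turned from 0.13 to -0.20. Actg2, the smooth muscle gamma-actin, had -0.01 and -0.20. Acta1, the skeletal muscle alpha-actin, was not tested, since its probe was well above background only in CD133-positive cells on array 2. None of the 3 tested actins was called, and coding sequences of actins are alike enough that probes may share transcripts, which was not tested. Outside the naming rule, 2 probes that the array describes as cytoplasmic gamma-actin had mean ratios of 0.13 and 0.28.

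The cross-linkers and scaffolds held the 3 lowest ratios of all members, with a median of -1.45. Of 6 tested genes 5 were below 0 on both arrays, beside 39.7% of all genes. Flnc, the filamin best known from striated muscle, had a normalised log2 intensity of 10.96 and 10.30 in CD133-positive cells on arrays 1 and 2, and of 12.79 and 12.70 in CD133-negative cells. Both CD133-positive values lay below both CD133-negative ones. The difference was -2.11 ± 0.20, a level 4.33-fold lower (limma adjusted p = 0.042). With 2 values per fraction, a lack of overlap, here and below, is weak evidence. The share of all genes without overlap was not computed. Members with ratios near 0, such as Actn1, Actn4, Pxn and Tagln, did not overlap either, so this trait does not set apart the genes with large ratios. It also compares levels across arrays, although the fractions were paired within each array. Ahnak, a very large scaffold protein under the plasma membrane that binds actin and annexin 2 complexes, had 12.56 and 12.43 in CD133-positive against 14.33 and 14.55 in CD133-negative cells. The fractions did not overlap, and its difference of -1.95 ± 0.16 was a 3.86-fold lower level (limma adjusted p = 0.034). The bases upstream of both genes are shown because each holds an MCAT motif, the site known for TEAD factors. Myh9, the other gene that fell, has none in its window, nor does the earlier start of Flnc. The 250 bases before the start are from RefSeq, build GRCm38.p6, with the motif in capitals (CATTCC, or GGAATG on the other strand). They lie on the plus strand at chr6:29433006-29433255 for Flnc, from the later of its 2 listed starts, and at chr19:8989034-8989283 for Ahnak.
Flnc: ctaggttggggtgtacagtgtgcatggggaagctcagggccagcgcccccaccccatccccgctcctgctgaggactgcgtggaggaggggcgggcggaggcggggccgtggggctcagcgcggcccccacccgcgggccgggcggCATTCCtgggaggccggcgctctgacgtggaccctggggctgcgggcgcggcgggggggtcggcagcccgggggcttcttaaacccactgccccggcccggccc
Ahnak: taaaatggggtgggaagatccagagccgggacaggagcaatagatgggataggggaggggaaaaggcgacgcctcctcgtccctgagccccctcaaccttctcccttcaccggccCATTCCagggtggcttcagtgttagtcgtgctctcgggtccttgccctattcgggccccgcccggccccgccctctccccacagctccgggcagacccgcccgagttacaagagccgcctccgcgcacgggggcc
The last base of the motif lies 99 bases before the start in Flnc and 130 in Ahnak, and a match of letters is not a bound site. The motif was in 14 of the 38 members with a promoter entry (36.8%) and in 14.4% of the 27025 genes in the table. The 13 tested members with it had a median ratio of -0.42 and the 22 without it -0.55, a difference that was not tested.

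Fscn1, fascin, which packs filaments into the tight bundles of filopodia, had ratios of -1.44 and -2.55. Its mean level was 3.99-fold lower, with an SE of 0.31 on the log2 scale, and with the arrays further apart than for Ahnak it missed the threshold (limma adjusted p = 0.075). Flna, the broadly expressed filamin, had -1.14 and -0.77, a mean of -0.95 ± 0.17 that also missed it (limma adjusted p = 0.082). The alpha-actinins, which cross-link filaments in stress fibres and at adhesions, were close to equal, Actn1 at -0.30 ± 0.14 and Actn4 at 0.26 ± 0.14. Actn4 turned to -0.03 with median centring. The differences between these paralogs were not tested.

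**Figure D2:**
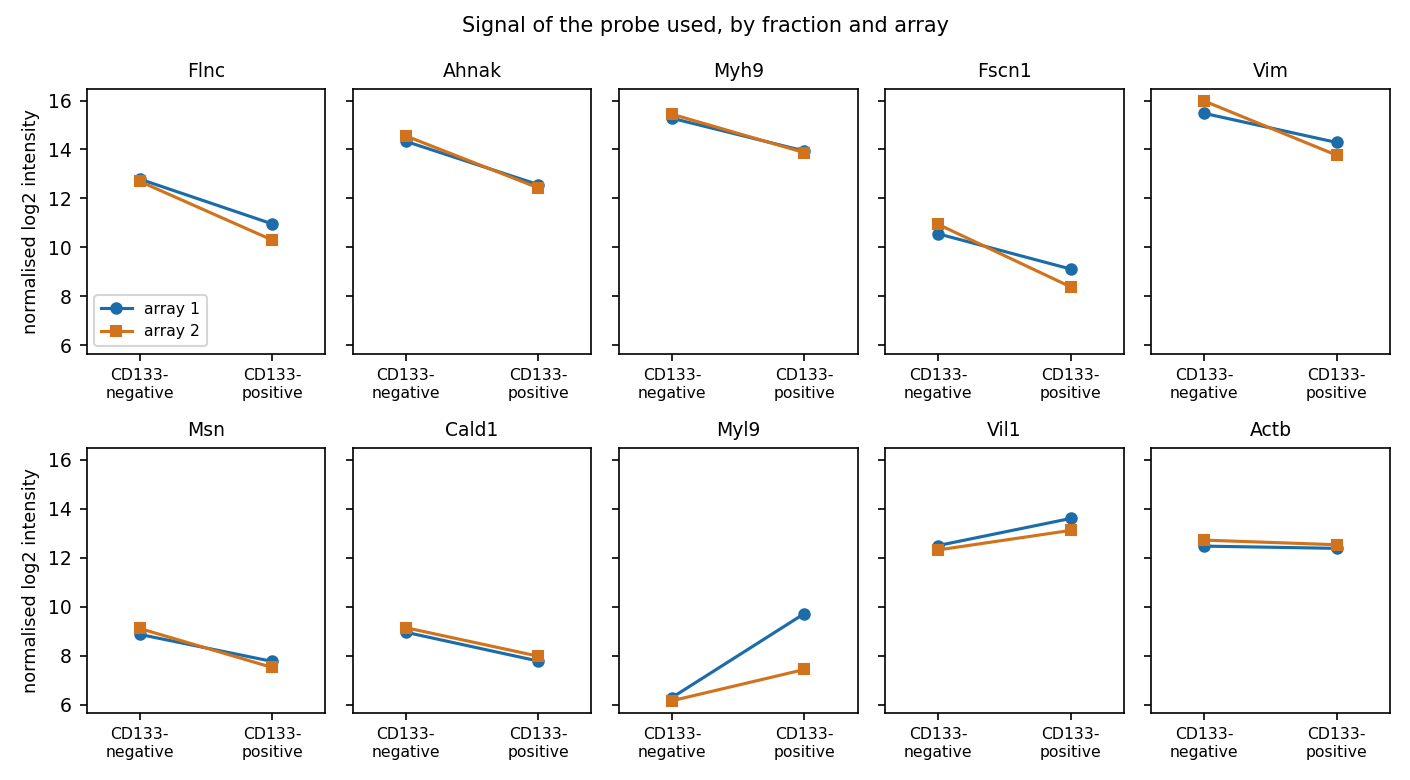
Normalised log2 intensity (y axis) of the probe used for 10 genes in CD133-negative and CD133-positive cells, with a line for each array. The lines of Flnc, Ahnak, Myh9, Fscn1, Vim, Msn and Cald1 descend on both arrays, those of Myl9 and Vil1 climb, and Actb stays within 0.19 on either array.

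Several genes had more than 1 probe, which let the ratio be read again within the same RNA. Of 22 members with more than 1 tested probe, 21 had the same sign of the mean with every tested probe, and Myl6 had both signs. The like share over all genes was not computed. The dimmest tested probes of Flnc, Ahnak and Myh9 passed the filter through CD133-negative cells only, which favours a ratio below 0, so their sign is no independent support. The 4 tested probes of Flnc had mean ratios of -2.11, -1.75, -0.81 and -0.23, in order of falling brightness. The 3 of Flna had -0.95, -0.93 and -0.36 in the same order. Ratios of dim probes lie nearer 0 in part by construction, since an offset of 50 was added to each intensity. Of the 6 tested probes of Ahnak, 5 were below 0 on both arrays, with means from -1.95 to -0.70, and the other had 0.11 on array 1 and -1.69 on array 2. The second probe of Myh9, which was dim, had -0.51 and 0.01. With the mean of all tested probes in place of the brightest, none of Flnc, Ahnak and Myh9 passed the threshold, at -1.22, -1.43 and -0.85 (limma adjusted p = 0.057, 0.054 and 0.074).

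**Figure D3:**
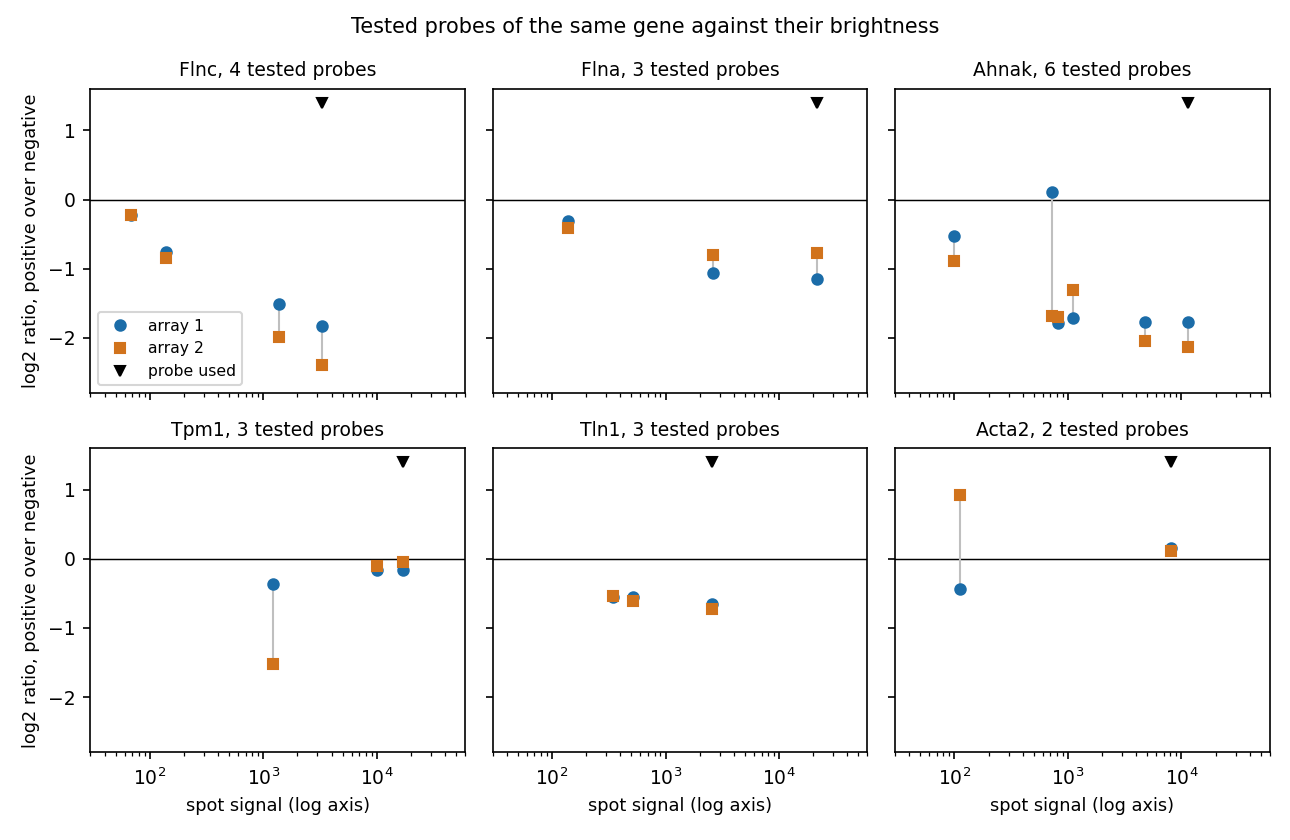
Log2 ratio (y axis) of each tested probe of 6 genes on arrays 1 and 2 against its brightness (x axis, log scale), the geometric mean of its spot signals in both fractions and on both arrays before correction. A triangle marks the probe used; dim probes of Flnc, Flna and Ahnak lie nearer 0 than bright ones, and the arrays lie apart for 1 probe each of Ahnak, Tpm1 and Acta2.

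Myh9 was the 1 gene called among the 5 myosin genes, and it fell. Myh9, the heavy chain of non-muscle myosin IIA, had a normalised log2 intensity of 13.94 and 13.87 in CD133-positive and of 15.28 and 15.44 in CD133-negative cells. The fractions did not overlap, and the difference of -1.45 ± 0.15 was a 2.74-fold lower level (limma adjusted p = 0.047). With the processed signals that the authors deposited it was -1.29 and did not pass (limma adjusted p = 0.084), and neither did Flnc at -2.15 (limma adjusted p = 0.0503), while Ahnak passed at -1.99 (limma adjusted p = 0.048). Myh10, the heavy chain of myosin IIB, had -0.62 and -0.23 and was not called. Mylk, the kinase that phosphorylates the regulatory light chain, had -0.91 and -1.30, a mean of -1.11 ± 0.17 (limma adjusted p = 0.072). Myl6, an essential light chain, was near equal at -0.36 and 0.11, and turned to 0.39 with the deposited signals.

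Myl9, a regulatory light chain of smooth muscle and non-muscle myosin, had the highest ratio of all members. Its single probe had a normalised log2 intensity of 9.72 and 7.44 in CD133-positive and of 6.29 and 6.16 in CD133-negative cells. The fractions did not overlap, but the ratios of 3.43 and 1.28 lay far apart, and the mean of 2.36 ± 0.56 did not pass (limma adjusted p = 0.11); it was 3.87 with the deposited signals. The probe was dim: before correction its signal was 570 and 126 in CD133-positive and 114 and 83 in CD133-negative cells on arrays 1 and 2. Its upstream bases are shown because they hold a CArG box, the site known for SRF, which reads CC, then 6 bases of A or T, then GG on either strand. The stretch is chr2:156775214-156775463 on the plus strand of GRCm38.p6 in RefSeq, with the box in capitals, its last base 152 bases before the start.
Myl9: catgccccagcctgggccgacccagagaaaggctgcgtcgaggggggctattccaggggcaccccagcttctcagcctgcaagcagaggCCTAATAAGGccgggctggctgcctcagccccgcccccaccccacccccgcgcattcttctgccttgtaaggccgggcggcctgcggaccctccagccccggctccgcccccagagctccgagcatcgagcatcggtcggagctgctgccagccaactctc
Such a box was in 7 of the 38 members with a promoter entry (18.4%), namely Acta1, Actg1, Cnn2, Myl6, Myl9, Vcl and Vil1, and in 1.62% of the genes in the table. Actb, Actg2, Cttn, Pxn, Tagln and Vil2 had no entry. The 5 tested members with the box had a median ratio of -0.08, from -0.31 to 2.36, and the 30 without it had a median of -0.72. Only exact boxes were sought, so genes with a near match count as without it. Acta2, with ccctatatgg in its window, is such a gene. The difference between these medians was not tested. None of the 3 genes that fell had the box in this window.

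Of 10 genes for proteins that bind along the filament and tune contraction, 7 were below 0 on both arrays and 2 above. The shares over all genes were 39.7% and 32.6%. None of the 10 was called. Cald1, caldesmon, which holds myosin off the filament, had ratios of -1.18 and -1.17, nearly the same on both arrays, and missed the threshold (-1.17 ± 0.14, limma adjusted p = 0.057). Smtn, smoothelin, a protein of contractile smooth muscle filaments, had -0.85 and -1.14 (limma adjusted p = 0.074). Cnn1, the smooth muscle calponin, had -0.99 and -0.78 (limma adjusted p = 0.078), with CD133-positive cells above background on array 1 only. Cnn1 thus passed the filter through CD133-negative cells only, which favours a ratio below 0, so its sign is no independent support. It is counted among the 7. Its dim signal left the size of the ratio uncertain, with -0.44 under median centring, -1.40 with an offset of 16 and -3.15 with the deposited signals. The other calponins were nearer 0, Cnn2 at -0.08 ± 0.18 and Cnn3 at -0.32 ± 0.20. Of the tropomyosins, which lie in the groove of the filament, Tpm1 had -0.10 ± 0.14 and Tpm4 -0.33 ± 0.16. Tpm2 differed between arrays, at -0.17 and -1.26 with the probe used and -0.23 and -1.26 with its other probe. The dimmest probe of Tpm1 likewise had -0.36 and -1.53. Both probes of Tpm2 thus lay apart between the arrays in the same way. Tagln, transgelin or SM22-alpha, a marker of smooth muscle, had 0.12 ± 0.14, and Tagln2, its relative in epithelial and other cells, had 0.38 and 0.48 (0.43 ± 0.14, limma adjusted p = 0.15).

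**Figure D4:**
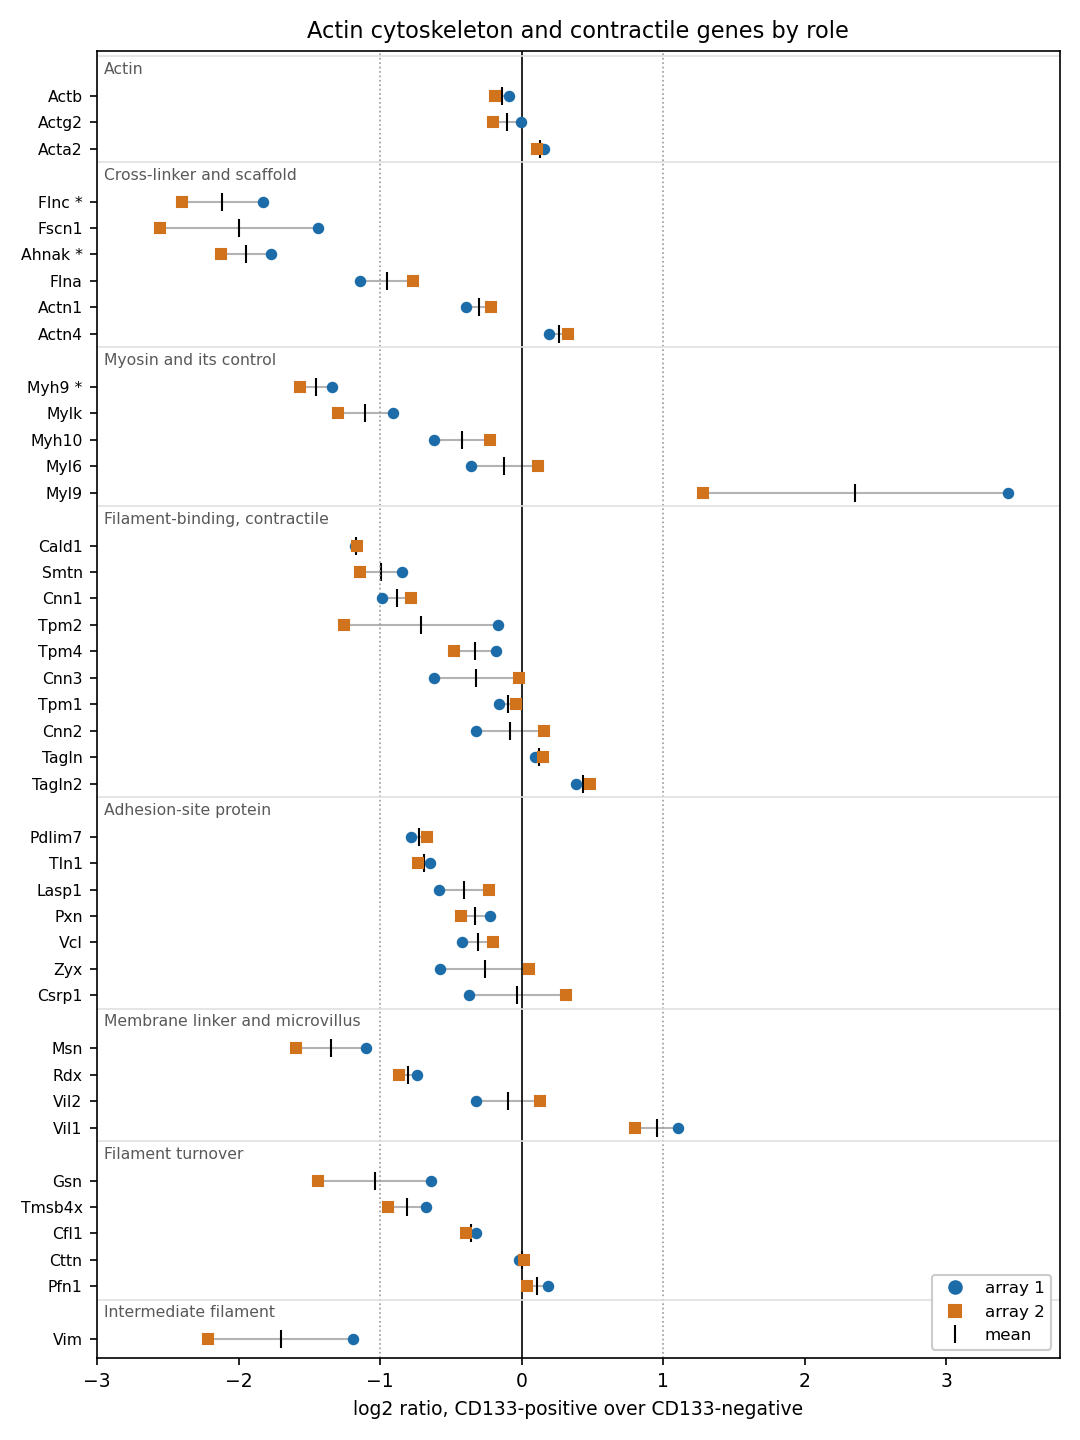
Log2 ratio (x axis) of the 41 tested genes by role, with a circle for array 1, a square for array 2, a bar for the mean, and dotted lines at 2-fold; an asterisk marks the genes with a limma adjusted p under 0.05. Flnc, Fscn1 and Ahnak have the lowest means, Myl9 the highest, and the actins and adhesion-site proteins stay within 2-fold.

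All 7 tested genes of adhesion-site proteins differed by less than 2-fold on each array. Tln1, talin, which switches integrins on, had -0.65 and -0.73, and its 3 tested probes had means from -0.69 to -0.55. Pdlim7, a PDZ and LIM protein of stress fibres, had -0.78 and -0.67. Talin and Pdlim7 were the members of this role with the lowest ratios and neither passed (limma adjusted p = 0.088 and 0.086). Lasp1, an actin-binding LIM and SH3 protein, had -0.41 ± 0.16, and Pxn, the adaptor paxillin, -0.33 ± 0.15. Vcl, vinculin, which links talin to actin, had -0.31 ± 0.15. Zyx, zyxin, which moves to strained filaments, had -0.57 on array 1 and 0.05 on array 2, and Csrp1, a LIM protein of smooth muscle filaments, had -0.37 and 0.31. Of the 7 genes, 5 were below 0 on both arrays, beside 39.7% of all genes, none was above 0 on both, and none was called.

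None of the 3 tested genes for linkers of the ezrin, radixin and moesin family was called. Msn, moesin, the linker of this family known from leukocytes and mesenchymal cells, had a normalised log2 intensity of 7.76 and 7.52 in CD133-positive and of 8.87 and 9.11 in CD133-negative cells. The fractions did not overlap, and the difference was -1.35 ± 0.18 (limma adjusted p = 0.066). Its 3 tested probes had means of -1.35, -1.04 and -0.89. Rdx, radixin, had -0.74 and -0.87, a mean of -0.80 ± 0.14 (limma adjusted p = 0.082). Vil2, which is ezrin, the linker of epithelial microvilli, had -0.33 and 0.13, and turned to a mean of 0.08 with the deposited signals. The 3 related linkers stood in the order moesin, radixin, ezrin from low to high, and the differences between them were not tested.

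Vil1, villin, which bundles and severs the filaments of microvilli and is a classic marker of gut epithelium, went the other way. Its normalised log2 intensity was 13.60 and 13.11 in CD133-positive and 12.50 and 12.32 in CD133-negative cells. The fractions did not overlap, and the difference of 0.95 ± 0.16 missed the threshold (limma adjusted p = 0.078), and it was 0.63 with median centring. A second probe gave 1.09 and 0.78. The upstream bases of Vil1 are shown because, like those of Myl9, they hold a CArG box, with its last base 64 bases before the start (chr1:74409134-74409383, plus strand, GRCm38.p6, RefSeq, box in capitals).
Vil1: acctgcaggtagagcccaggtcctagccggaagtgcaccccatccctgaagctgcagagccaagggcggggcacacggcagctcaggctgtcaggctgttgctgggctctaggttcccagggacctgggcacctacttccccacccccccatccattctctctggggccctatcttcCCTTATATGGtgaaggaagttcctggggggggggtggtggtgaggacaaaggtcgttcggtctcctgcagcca
Myl9 and Vil1, the members with the highest ratios, were the 2 tested members above 0 on both arrays with this box, and neither was called. Cnn2, Myl6 and Vcl, which also have the box but whose bases are not shown, had means of -0.08, -0.12 and -0.31. A link between the box and the ratio was not tested.

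Of 5 tested regulators of filament turnover, 3 were below 0 on both arrays and 1 above, beside 39.7% and 32.6% of all genes, and none was called. Gsn, gelsolin, which severs and caps filaments, had -0.64 and -1.44 (-1.04 ± 0.24, limma adjusted p = 0.11). Tmsb4x, thymosin beta-4, which holds actin monomers in reserve, had -0.68 and -0.95 (-0.81 ± 0.15, limma adjusted p = 0.085), and a mean of -1.32 with median centring. Cfl1, the severing protein cofilin, had -0.36 ± 0.14. Pfn1, profilin, which feeds monomers to growing ends, had 0.11 ± 0.14 and turned to -0.17 with median centring. Cttn, cortactin, which steadies branched networks, had a mean of 0.00 ± 0.14. Vim, vimentin, the intermediate filament of mesenchymal cells, had a normalised log2 intensity of 14.29 and 13.76 in CD133-positive and of 15.48 and 15.98 in CD133-negative cells. The fractions did not overlap, but the ratios of -1.19 and -2.21 lay apart and the mean of -1.70 ± 0.29 missed the threshold (limma adjusted p = 0.082). The probe used for Vim was bright in both fractions, so vimentin transcript was measured in CD133-positive cells too. A second probe of Vim was not well above background in either fraction on either array, so the ratio rests on 1 probe.

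Other genes of the actin pathway were taken as 6 lists, in which 3 of 117 tested genes (2.56%) were called higher, beside 1.38% of all genes. None was called lower, beside 0.262% of all genes. That share is so small that a lack of lower calls is no result about these lists. Among 25 tested nucleation genes, none was called lower and Cobl, which nucleates unbranched filaments, rose by 1.39 ± 0.14 (limma adjusted p = 0.047), while the formin Fmnl3 had -1.33. Among 16 tested brush border genes, Eps8l3, a relative of the filament regulator Eps8, rose by 2.80 ± 0.16 (limma adjusted p = 0.018) and the microvillus motor Myo1a had 1.35, and none was called lower. Of these 16 genes, 8 were above 0 on both arrays and 5 below, beside 32.6% and 39.7% of all genes. The lowest ratio of the brush border list was -1.01. Its median was 0.18, against -0.22 for the nucleation list, a difference that was not tested. Of 11 tested SRF and MRTF factors and targets, Fhl1 rose by 2.72 ± 0.14 (limma adjusted p = 0.016) and none was called lower, though Ankrd1 had -2.24. No gene was called by limma among 20 focal adhesion adaptors, 25 turnover and capping genes and 20 other myosins, tropomyosins and sarcomere-type proteins. The widest ratios in these lists were -2.27 for Tns1 and -1.73 for Lims2, 1.63 for Lcp1 and -1.09 for Limk1, and -2.03 for Pdlim2 and 1.73 for Palld. Their medians were -0.42, -0.33 and -0.05 in the same order.

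**Figure D5:**
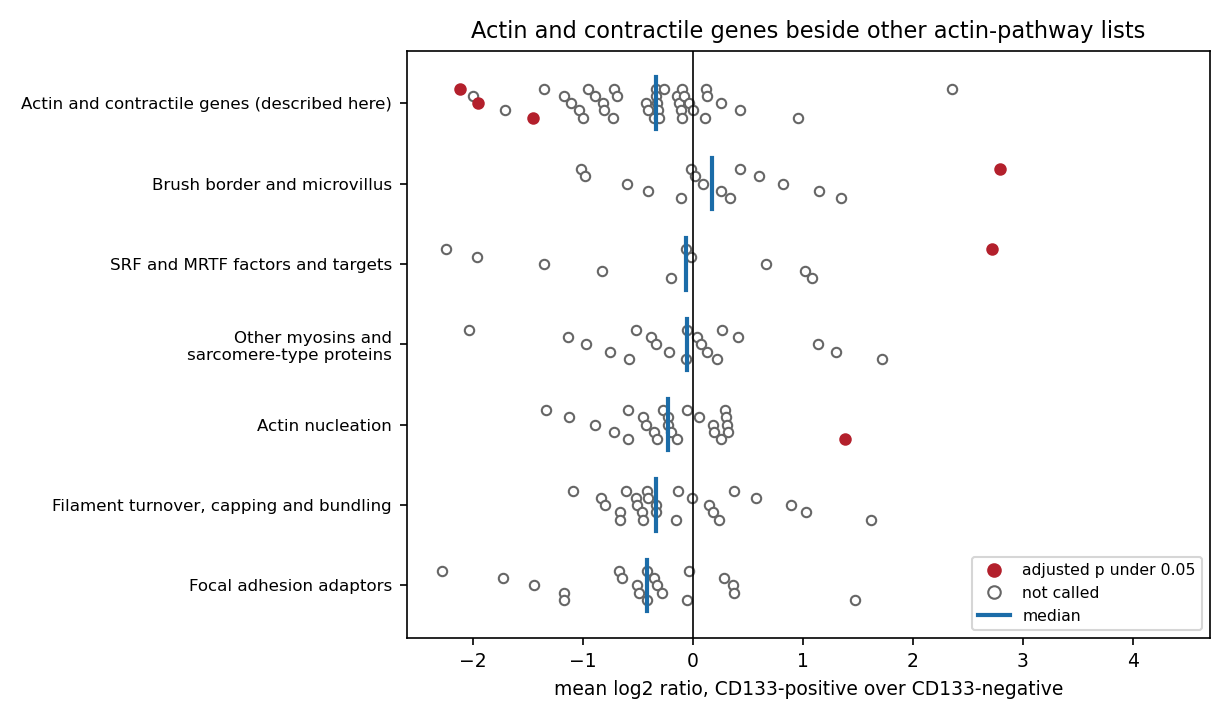
Mean log2 ratio (x axis) of each tested gene (circles) of the actin and contractile genes and of 6 other lists, with the median as a bar; filled circles have a limma adjusted p under 0.05. The actin and contractile genes hold the 3 filled circles below 0, and the brush border list is the 1 list with a median above 0.

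Smooth muscle markers were read as a check on the contractile names. Of 12 such markers, 7 were tested, 4 of which (Acta2, Actg2, Cnn1 and Smtn) are members too, none was called, and the ratios ran from -0.99 to 0.27. Kcnmb1, Lmod1, Myocd and Synpo2 were not well above background in either fraction, and Myh11, the smooth muscle myosin heavy chain, did not reach the level for testing.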

How the data were processed

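Each of 2 Agilent arrays compared CD133-positive (Cy3) with CD133-negative (Cy5) GIF-5 cells. The authors deposited the spot and background intensity of each channel from Agilent's program Feature Extraction, version 9.5.3.1, and a processed intensity that was background-subtracted and dye-normalised, per the file headers. Their log10 ratio of red over green, also deposited, equals the series' value table in all 45018 spots of both arrays; its median is 0, and scale and direction follow from that match. No spot was saturated, and from 23498 to 25213 spots per array and channel were well above background.

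Intensities were corrected by normexp (offset 50) and loess within arrays, control spots at weight 0, and turned into log2 ratios with CD133-positive cells as numerator. Flagged outlier spots were left out and spots of a probe averaged. A probe was tested if well above background in either channel on both arrays, for 23173 of 41174 probes, and the brightest tested probe stood for its gene. The RefSeq table of GRCm38.p6 named 22951 probes by accession, 6659 by symbol and 3109 by synonym; 8455 kept the name in the files. Normalised levels per fraction come from loess and Aquantile scaling, and "at least" marks bounds set by background in the dim fraction, open to dye bias without a dye swap. The test was that of limma 3.58.1 (R 4.3.3), two-sided, with Benjamini-Hochberg adjustment over 15267 genes and a threshold of 0.05; there was 1 residual degree of freedom and 2.86 prior ones. On simulated arrays of 15267 genes, this test recovered 85 of 100 genes changed by 2 on the log2 scale and 100 of 100 changed by 3, with 21 false calls. The simulated variances came from the limma prior fitted to these data, with independent normal noise and no dye bias. The simulation thus checks the test under its own assumptions and does not measure its errors on the real arrays. The number of arrays limits the precision.

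The members and lists were chosen with earlier results of these data known. Every member is accounted for; from each pathway list, called genes and the 2 largest ratios in size with the same direction on both arrays are named. The result of 1 pathway list is not reported here. Markers are given by counts, range and those not above background, and the called markers, Myh11, Epcam, Col1a1, Col1a2 and Csf1r were named after their values were seen. Motifs were sought in the 250 bases before the start in RefSeq promoters, which 38 of 44 names matched.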

Additional observations from a re-analysis of the deposited data

How the results depend on the processing

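Alternatives were no background correction, an offset of 16, median centring, scaling between arrays, the deposited processed signals, both channels above background, the mean of a gene's tested probes, an intensity trend of the prior, no moderation and each array alone. The 3 members called lower became 6 with the offset of 16, 12 with scaling, 18 with median centring, 8 with the trend, 1 with the deposited signals, and 0 with the mean of probes or no moderation. The members called higher went from 0 to 1 with median centring (Myl9) and with the trend (Vil1). Members at least 2-fold lower went from 7 to 4 with the mean of probes and were 8 to 11 on single arrays, where 1 to 2 were at least 2-fold higher. The members' median of -0.33 was -0.67 with median centring, which removed array medians of -1.24 and -1.19, and ranged from -0.42 to -0.23 on single arrays. Over all genes, 40 lower and 211 higher calls became 119 lower with no correction, 150 and 398 with the offset of 16, 1573 and 2440 with median centring, 813 and 632 with scaling, 73 and 352 with the deposited signals, 73 lower with both channels, 326 and 494 with the trend, and 0 and 0 without moderation. The mean ratio turned sign for Myl6 (0.39) and Vil2 (0.078) with the deposited signals, for Cttn with no correction (0.0011) and the offset of 16 (0.0075), and for Pfn1 (-0.17), Acta2 (-0.20) and Actn4 (-0.029) with median centring. None of these 6 genes passed the limma test under the setting that turned its sign. The causes of these shifts were not tested. Adjusted p-values from limma over the alternatives ran from 0.014 to 0.52 for Flnc, 0.014 to 0.51 for Ahnak and 0.020 to 0.50 for Myh9. Flnc, Ahnak and Myh9 kept their direction under all of these settings. Dim probes, such as that of Myl9, limit what can be read from a ratio.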
